A study of Mus musculus with 6 samples.

Results

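The striated muscle myosin heavy chains are 10 genes, chosen by name from the 23073 genes with a value. They are Myh3, the embryonic isoform, Myh8, the perinatal isoform, Myh7, Myh7b, Myh6 and Myh15, the slow and cardiac isoforms, and Myh2, Myh1, Myh4 and Myh13, the adult fast and extraocular isoforms. Their RNA was measured by RNA-Seq in diaphragm muscle of mouse embryos at E14.75, in 6 libraries. Whole-muscle RNA of erbB3 WT embryos gave libraries 5 and 6, and whole-muscle RNA of erbB3 KO embryos, called erbB3 mutant here, gave libraries 1 and 2. The other 2 libraries, called Wnt1-Ribotag here, hold ribosome-bound RNA precipitated with an anti-hemagluttinin antibody from embryos with the alleles Wnt1-Cre, Ribotag and erbB3 WT. erbB3 is a receptor for neuregulin that Schwann cell precursors need, and Wnt1-Cre switches on the ribosome tag in cells of the neural crest lineage, to which Schwann cells belong and skeletal muscle fibres do not. Each Wnt1-Ribotag library came from pooled diaphragms of a litter and from far less RNA than the whole-muscle libraries. The paper states that all diaphragms of a litter were homogenized and that genotyping afterwards found only some embryos to carry Wnt1-Cre. The homogenate therefore also held muscle of embryos without the tag. The comparisons ask how the myosin genes differ in muscle without Schwann cells, and at what level they appear in the ribosome-bound RNA.

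Myosin heavy chain is the motor of the thick filament, and each muscle fibre uses a small choice of its isoforms. Fetal skeletal muscle is built mainly with the embryonic and perinatal isoforms and a slow isoform shared with the heart, and the adult fast isoforms take over after birth. Nerve activity is known to shape the later choice between slow and fast isoforms.

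The values are RPKM, read numbers scaled by gene length and by library depth, which can be set side by side between genes of a library. Genes with no reads are listed at a floor above 0, and those floors gave depths of 100178863 to 230216660 mapped reads per library. The Erbb3 transcript itself did not separate the genotypes, at 16.5 and 15.8 RPKM in WT against 21.5 and 11.9 in the mutant, while Sox10, a Schwann cell factor, was 2.89 and 2.16 against 0.00854 and 0.0178. All 30 skeletal muscle fibre markers were above the floor, and none of them passed the test in mutant vs. WT or in Wnt1-Ribotag vs. WT muscle. Heart muscle also uses Myh6 and Myh7. The 16 other cardiomyocyte genes summed to 54.3 to 58.7 RPKM in WT, 43.1 to 51.1 in mutant and 52.0 to 99.5 in Wnt1-Ribotag libraries. They were led by Gata4, Hand2 and Myl7. Of these 16 genes, 6 reached the mean of 0.5 RPKM needed for the test in mutant vs. WT muscle. The sum therefore rests on few of them and is not a measure of heart muscle RNA. The summed RPKM of 12 liver genes was 173 to 565 in WT, 13.7 to 22.1 in mutant and 216 to 319 in Wnt1-Ribotag libraries. The 15 Schwann cell markers summed to 114 to 123, 95.02 to 113 and 278 to 552 RPKM. Whether these cells and tissues had a part in the myosin values was not tested. In bulk muscle, fewer fibres and less RNA per fibre cannot be told apart.

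Of the 10 genes, 6 lie side by side on the plus strand of chromosome 11, in the order Myh3, Myh2, Myh1, Myh4, Myh8 and Myh13, within 293.287 kb of GRCm38 that begins at 67078300 and ends at 67371586. Myh6 and Myh7 lie on the minus strand of chromosome 14 with 3.756 kb between them. Myh7b lies on chromosome 2 and Myh15 on chromosome 16. Identical stretches of coding sequence are shown here because a read that falls in them cannot be given to a single isoform. The coding sequences of Myh1, Myh2, Myh4 and Myh8 share a run of 109 bases, found in exon 24 of Myh8 at chr11:67297488-67297596 on the plus strand of GRCm38 (GENCODE M21) and in exon 24 of Myh1 and Myh2 and exon 22 of Myh4.
Shared run: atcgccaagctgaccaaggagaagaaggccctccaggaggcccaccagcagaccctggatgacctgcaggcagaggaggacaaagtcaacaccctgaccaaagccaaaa

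The longest run shared by a pair of genes was 268 bases in Myh1 and Myh2, followed in the 2 slow and cardiac genes Myh6 and Myh7 by 245 bases. When the coding sequences were cut into all words of 50 bases, 28.1% of the words of Myh2, 27.9% of Myh1, 23.9% of Myh7, 23.8% of Myh6, 22.7% of Myh8 and 19.6% of Myh4 occurred in at least 1 other gene of the family. The share was 8.81% in Myh13 and 4.99% in Myh3, and Myh7b and Myh15 shared no word. No gene outside the family held any of these words. Read length and the treatment of reads with several matches are not given in the sources used here.

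**Figure D1:**
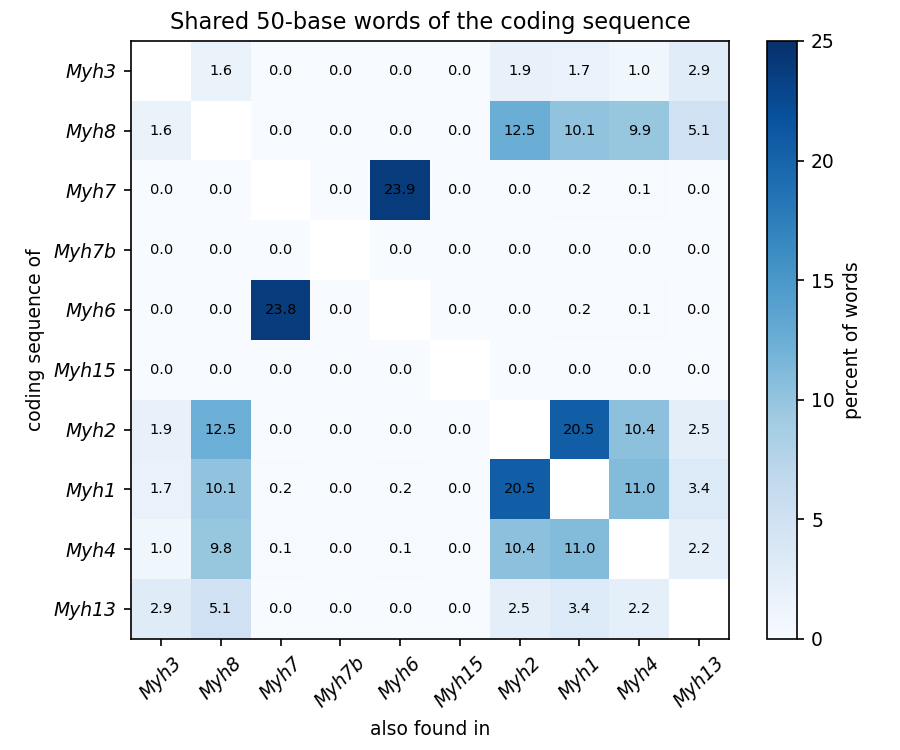
Percent of the 50-base words of each coding sequence (vertical axis) that also occur in each other coding sequence (horizontal axis), with darker blue for a larger percent. Myh6 and Myh7 shared 23.8% to 23.9% with each other, and Myh1 and Myh2 shared 20.5%.

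Each of 3 of the genes also holds a microRNA in an intron, on the same strand. The mature sequences (RefSeq, GRCm38.p6) are shown because their seeds, bases 2 to 8, group them by target choice, and the seed is in capitals.
miR-208a-3p, in Myh6: aUAAGACGagcaaaaagcuugu
miR-208b-3p, in Myh7: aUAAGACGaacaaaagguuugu
miR-499-5p, in Myh7b: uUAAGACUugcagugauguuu
The seed is UAAGACG in both miR-208a-3p and miR-208b-3p and UAAGACU in miR-499-5p. The values of the genes of these microRNAs were above the floor in 1 of 6 libraries each, at 0.235 RPKM for Mir208a in WT 5 and, in WT 6, 0.165 for Mir208b and 0.268 for Mir499. The libraries were made from RNA bound to oligo-dT beads, so the mature microRNAs were not measured.

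Myh3 had the highest level of the family in every library. Myh3 (ENSMUSG00000020908, chr11:67078300-67102291) stood at 257 and 224 RPKM in WT, 353 and 188 in mutant and 394 and 295 in Wnt1-Ribotag libraries. Myh8 (ENSMUSG00000055775, chr11:67277124-67308634), the perinatal isoform of the same cluster, came next in every library. It stood at 106 and 95.2 RPKM in WT, 206 and 72.3 in mutant and 294 and 226 in Wnt1-Ribotag libraries. The mutant libraries lay on either side of the WT libraries for both genes, and the Wnt1-Ribotag libraries lay above all WT libraries.

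The slow and cardiac genes were lower. Myh7 (ENSMUSG00000053093, chr14:54970684-54994626), the slow isoform of skeletal fibres and the heart ventricle, stood at 44.9 and 38.6 RPKM in WT, 60.2 and 22.6 in mutant and 57.0 and 33.3 in Wnt1-Ribotag libraries. Myh6, the alpha isoform of the heart, stood at 17.5 and 17.6, 21.8 and 10.96, and 24.5 and 15.4 RPKM in the same order. The range of the WT libraries lay within that of both other groups for each of these genes. Myh7b, an old relative of the slow gene, stood at 8.15 and 10.5 RPKM in WT, 9.78 and 5.37 in mutant and 12.9 and 8.28 in Wnt1-Ribotag libraries, with the groups overlapping. Myh15, another old member of the family, was above the floor in all 6 libraries but between 0.00289 and 0.0369 RPKM, under the mean of 0.5 RPKM that a gene needed to be tested.

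The adult fast genes were present at similar levels to each other. Myh2, the IIa isoform, stood at 21.2 and 19.0 RPKM in WT, 36.2 and 13.1 in mutant and 39.4 and 27.6 in Wnt1-Ribotag libraries. Myh1, the IIx isoform, stood at 21.4 and 19.8, 32.0 and 13.4, and 35.8 and 25.9 RPKM in that order. Their levels kept close in every library, with a Myh1 over Myh2 ratio from 0.883 to 1.04. Myh4, the IIb isoform, stood at 19.1 and 16.2, 30.0 and 10.5, and 29.5 and 22.4 RPKM. Myh13, the isoform of extraocular muscle, stood at 15.0 and 12.1, 22.1 and 10.5, and 23.0 and 21.6 RPKM. All 4 showed the same layout, with mutant 1 above and mutant 2 below the WT libraries and the Wnt1-Ribotag libraries above WT.

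**Figure D2:**
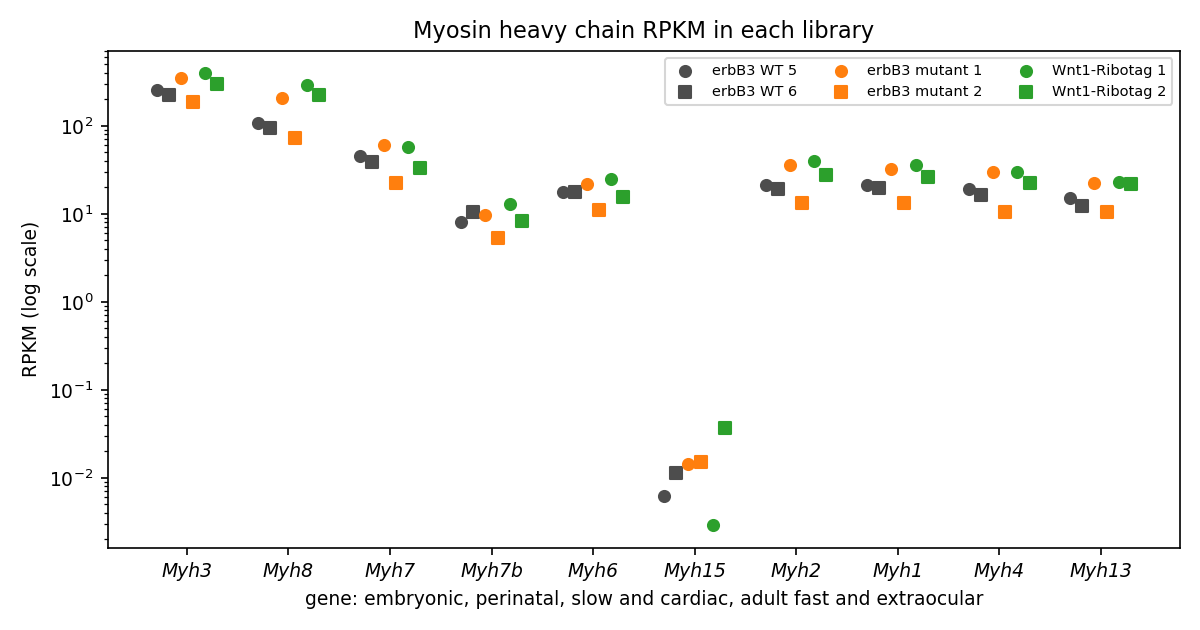
RPKM (vertical log axis) of the 10 genes in each of the 6 libraries, 1 point per library, coloured by group. Myh3 is highest with 188 to 394 RPKM, Myh15 lies between 0.00289 and 0.0369, and for 9 of the 10 genes mutant 1 lies above mutant 2.

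In WT muscle the order of levels was Myh3 (240 ± 23.2 RPKM, SD, n = 2), Myh8 (101 ± 7.83), Myh7 (41.7 ± 4.43), Myh1 (20.6 ± 1.17), Myh2 (20.1 ± 1.54), Myh4 (17.7 ± 2.08), Myh6 (17.6 ± 0.0443), Myh13 (13.6 ± 2.00), Myh7b (9.32 ± 1.65) and Myh15 (0.00875 ± 0.00348). The values of Myh1 and Myh2, of Myh2 and Myh4, and of Myh4 and Myh6 overlapped between the WT libraries, so these neighbours did not differ beyond their spread. The values of all other neighbours in this order did not overlap. The levels of Myh2, Myh1, Myh13 and Myh4 are of the size that shared words of 50 bases could bring. If every shared 50-base word carried the RPKM of each other gene that holds it, the words would bring to Myh2 117%, to Myh1 101%, to Myh13 101% and to Myh4 95.9% of the RPKM listed for it in WT muscle. The same sum came to 56.9% for Myh6, 10.9% for Myh8, 10.2% for Myh7 and 1.22% for Myh3, and to 0 for Myh7b and Myh15. With words of 36 bases the percentages for Myh2, Myh1, Myh13 and Myh4 were 190%, 160%, 152% and 158%, and that for Myh8 was 20.4%. With words of 100 bases, which a longer read would need, the percentages for Myh2, Myh1, Myh13 and Myh4 were 27.2%, 23.9%, 38.6% and 12.8%. The levels of the adult fast genes and of Myh6 are therefore uncertain, and whether such reads were counted for them was not tested.

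Together the 10 genes summed to 510 and 453 RPKM in WT, 771 and 346 in mutant and 910 and 675 in Wnt1-Ribotag libraries. The mean was 1.16-fold higher in mutant than in WT muscle, with WT inside the range of the mutant libraries (p = 1, two-sided exact permutation test over libraries). It was 1.65-fold higher in Wnt1-Ribotag than in WT libraries, without overlap (p = 0.33, exact permutation test, the smallest p that 2 libraries against 2 can give).

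None of the 9 genes tested passed the threshold between erbB3 mutant and WT muscle (limma's linear model on log2(RPKM + 0.5), Benjamini-Hochberg adjusted p under 0.05), where 24 of 14052 genes did, or 0.171%. At an unadjusted p under 0.05 stood 1691 genes, none of them a myosin heavy chain. The log2 fold change was 0.28 for Myh8 (SE 0.40, adjusted p = 0.759 from limma), 0.10 for Myh3 (SE 0.27) and -0.33 for Myh7b (SE 0.26, adjusted p = 0.566 from limma), the largest of the family in either direction being those of Myh8 and Myh7b. The other 6 lay between -0.18 for Myh6 and 0.17 for Myh13, beside a median of -0.10 over all genes tested. For none of the 9 did the 2 groups stay apart, whereas 12.7% of all genes tested were higher and 37.4% lower in both mutant libraries than in both WT libraries. These p-values measure the spread between 2 libraries per group.

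The spread lay between the mutant libraries. Mutant 1 over mutant 2 was 2.85 for Myh8 and Myh4, 2.76 for Myh2, 2.66 for Myh7, 2.39 for Myh1, 2.10 for Myh13, 1.99 for Myh6, 1.88 for Myh3 and 1.82 for Myh7b. The WT libraries differed by at most 1.29-fold over the same 9 genes. With mutant 2 left out, all 9 log2 fold changes were positive, and with mutant 1 left out, all 9 were negative. The difference between the mutant libraries was not of the same size in all muscle genes. The regulatory light chain gene Mylpf, whose protein binds the neck of the same heavy chains, was 2325 and 2068 RPKM in the mutant libraries against 1293 and 995 in WT. Between mutant 1 and mutant 2, the median log2 difference of the skeletal muscle fibre markers was 0.22 for 8 genes with transcripts under 2 kb, 0.66 for 11 genes of 2 to 4 kb and 1.02 for 11 longer genes. The longest transcripts of the heavy chain genes measure 6016 to 6340 bases. Over all genes the same medians were -0.06, 0.06 and 0.15. The part of transcript length in the difference was not tested.

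**Figure D3:**
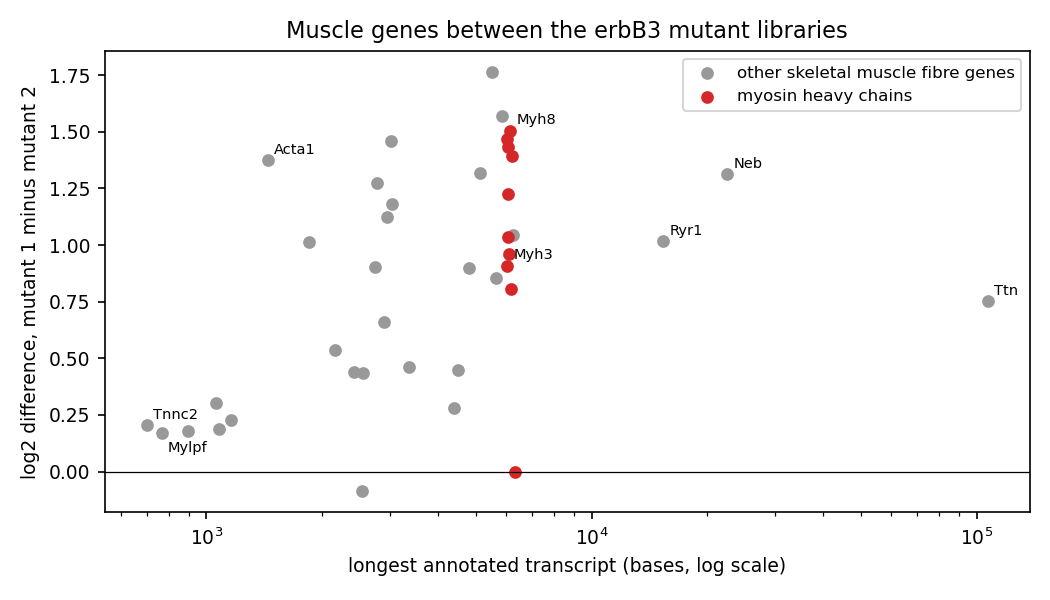
Log2 difference between the erbB3 mutant libraries on the log2(RPKM + 0.5) scale (vertical) against the length of the longest annotated transcript in bases (log axis), 1 point per gene, for the heavy chains (red) and the 30 skeletal muscle fibre markers (grey). Mylpf and Tnnc2 lie near 0.2, and 9 of 10 heavy chains lie between 0.81 and 1.51.

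How the heavy chains lay against the other muscle genes of their own library depended on the reference used. The log2 distance of Myh7b to the median of the 30 skeletal muscle fibre markers was -1.98 and -1.49 in WT and -2.31 and -2.30 in mutant libraries. That of Myh6 was -0.92 and -0.77 against -1.19 and -1.33, and that of Myh7 was 0.41 and 0.34 against 0.25 and -0.32. All 3 lay lower in both mutant libraries than in both WT libraries, by means of 0.57, 0.42 and 0.41. Myh3 and Myh1 did so as well, by smaller means of 0.14 and 0.23, which makes 5 of 9 genes tested, beside 33.0% of all 14052 genes tested on the same scale. Ttn, the giant spring protein of the sarcomere, was also used as the reference. With it, 2 of 9 genes, Myh7b and Myh6, lay lower in both mutant libraries, beside 32.1% of all genes. Myh7, Myh3 and Myh1 did not. Shared words of 50 bases would bring to Myh6 56.9% of the listed RPKM in WT and 60.6% in mutant libraries. If such reads were counted for it, Myh6 and Myh7 are not separate genes here, which was not tested. These distances are descriptions without a test, and the markers include short transcripts, which stood higher in the mutant than long ones, with medians of 0.88 under 2 kb and 0.18 at 4 kb or longer in mutant vs. WT muscle.

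In Wnt1-Ribotag vs. WT libraries the family lay higher, with Myh8 at the top. Myh8 had a log2 fold change of 1.35 (SE 0.20, unadjusted p = 0.000944, adjusted p = 0.148 from limma) and was higher in all 4 pairs of libraries, by 1.08 to 1.62 on the log2 scale. None of the 9 genes passed the threshold, which 1 of 14418 genes did, or 0.00694%, while 2813 had an unadjusted p under 0.05. Myh13 and Myh2 each had a log2 fold change of 0.70 (SE 0.18 and 0.23), Myh1 of 0.55, Myh4 of 0.53 and Myh3 of 0.51, with adjusted p from limma between 0.184 and 0.278. These 5 genes and Myh8 were higher in both Wnt1-Ribotag libraries than in both WT libraries, 6 of 9 genes tested, beside 23.3% of all genes tested. None of the 9 was lower in both, beside 31.0% of all genes tested. In Wnt1-Ribotag libraries, shared words of 50 bases would bring to Myh2 145% and to Myh1 138% of the listed RPKM. For Myh4 the sum came to 140% and for Myh13 to 115%. With words of 100 bases, the lowest of these sums was 19.6% for Myh4 and the highest 44.8% for Myh13. If reads from shared stretches were counted for them, the 6 genes are not a count of separate genes. Whether they were was not tested. Myh7b, Myh6 and Myh7 overlapped between the groups, with log2 fold changes of 0.15, 0.14 and 0.07. With either Wnt1-Ribotag library left out, so that the spread came from the WT libraries alone, Myh8 passed the threshold (adjusted p = 0.00594 without Wnt1-Ribotag 1 and 0.00193 without Wnt1-Ribotag 2 from limma), but so did 4482 and 5965 genes.

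Wnt1-Ribotag and mutant libraries were compared with the same test, and the 3 comparisons share libraries with each other. The log2 fold change of Myh8 was 1.07 (SE 0.48, adjusted p = 0.282 from limma), and its Wnt1-Ribotag libraries lay above both mutant libraries, 1 of 9 genes tested, beside 29.7% of all genes. It was 0.32 without mutant 2 and 1.83 without mutant 1. The other 8 had log2 fold changes between 0.23 for Myh7 and 0.58 for Myh2, with overlapping libraries, and 0 of 9 genes were called beside 171 of 14325 genes, or 1.19%. At an unadjusted p under 0.05 stood 2758 genes, none of them a heavy chain.

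**Figure D4:**
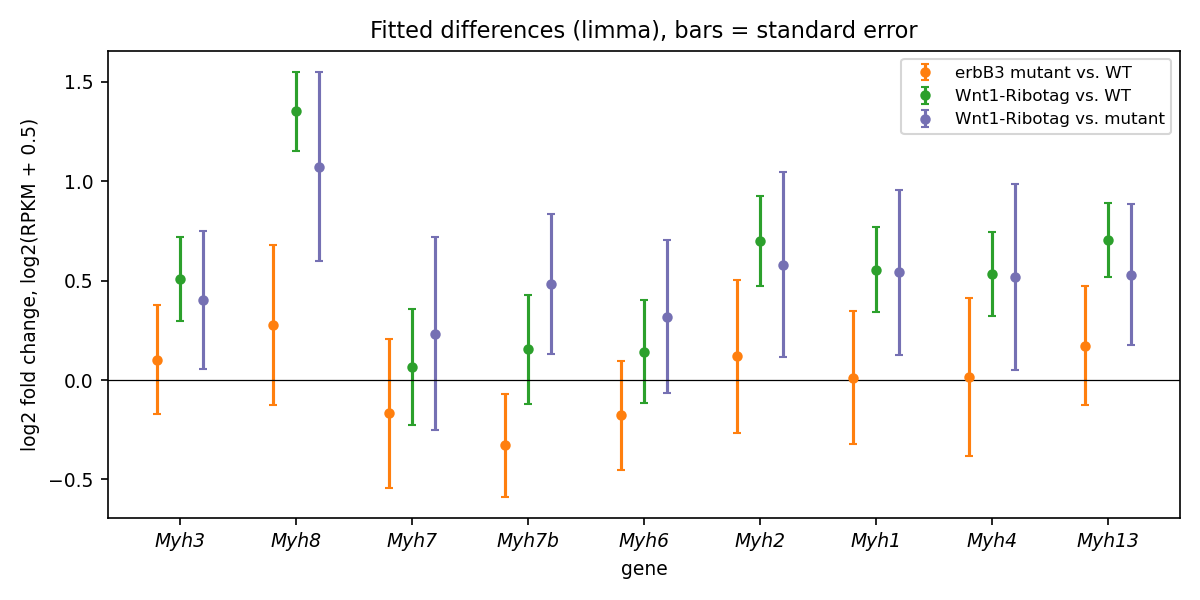
Log2 fold change on the log2(RPKM + 0.5) scale from limma (points) with its standard error (bars) for the 9 genes tested in the 3 comparisons. Myh8 stands highest with 1.35 in Wnt1-Ribotag vs. WT and 1.07 in Wnt1-Ribotag vs. mutant, and all mutant vs. WT values lie between -0.33 and 0.28.

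The make-up of the family, which does not depend on how a library is scaled, differed in the ribosome-bound RNA. Myh8 made up 20.8% and 21.03% of the summed RPKM of the 10 genes in WT, 26.7% and 20.9% in mutant and 32.3% and 33.5% in Wnt1-Ribotag libraries. The Wnt1-Ribotag shares were above all others, by 11.9 percentage points against the mean of WT and 9.09 against that of the mutant (p = 0.33 each, two-sided exact permutation test, the smallest possible). Myh3 made up 50.3% and 49.4% in WT, 45.8% and 54.2% in mutant and 43.3% and 43.6% in Wnt1-Ribotag libraries. The ratio of Myh8 to Myh3 was 0.414 and 0.426 in WT, 0.584 and 0.385 in mutant and 0.745 and 0.767 in Wnt1-Ribotag libraries, so that the perinatal isoform came closest to the embryonic isoform there. The slow and cardiac genes made up 13.8% and 14.73% in WT, 11.9% and 11.3% in mutant and 10.4% and 8.45% in Wnt1-Ribotag libraries, without overlap between any of the groups (p = 0.33 for each pair of groups, two-sided exact permutation test). The adult fast and extraocular genes had nearly the same share everywhere, from 13.7% to 15.6%. Shared words of 50 bases would bring to these genes between 95.9% (Myh4) and 117% (Myh2) of their listed RPKM in WT muscle. The part of the other heavy chains in this share was not tested. A larger Myh8 share leaves a smaller share for the other genes, so a lower share is not a lower level. In Wnt1-Ribotag vs. WT libraries the log2 fold changes of Myh3, Myh7, Myh7b and Myh6 were 0.51, 0.07, 0.15 and 0.14.

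**Figure D5:**
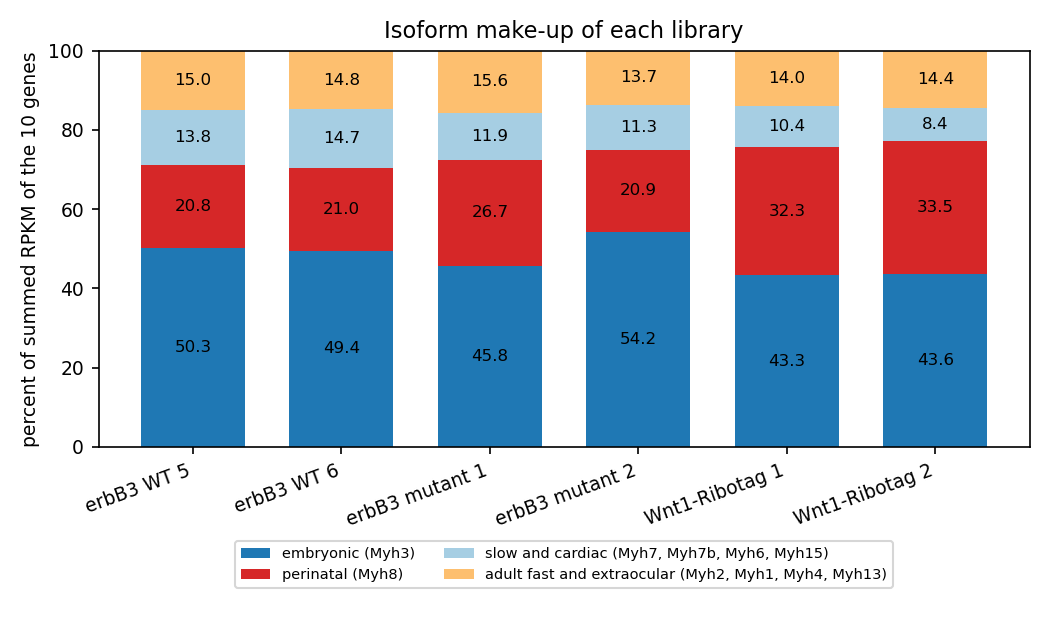
Percent of the summed RPKM of the 10 genes (vertical axis) taken by each isoform class in each library, with the percent printed in each block. Myh8 (red) takes 32.3% and 33.5% in the Wnt1-Ribotag libraries and at most 26.7% elsewhere.

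Against the other muscle genes of the same library, Myh8 lay higher in both Wnt1-Ribotag libraries than in the other 4. Myh3, Myh2, Myh1, Myh4 and Myh13 did so as well, by smaller means of 0.33, 0.53, 0.38, 0.36 and 0.53 against WT. The share of all genes with this layout was not computed, for this reference or for Ttn. Whether the layout is particular to these genes is therefore not known. The log2 distance of Myh8 to the marker median was 1.64 and 1.64 in WT and 2.02 and 1.34 in mutant libraries. It was 3.02 and 2.62 in Wnt1-Ribotag libraries, a mean difference of 1.18 to WT and 1.14 to the mutant. The marker median itself was 5.10 and 4.95 in WT, 5.67 and 4.85 in mutant and 5.18 and 5.21 in Wnt1-Ribotag libraries, on the log2(RPKM + 0.5) scale. With Ttn as the reference the mean differences of Myh8 were 1.26 and 1.16. Myh3, Myh2, Myh1, Myh4 and Myh13 also lay higher in both Wnt1-Ribotag libraries with Ttn, as did Myh6, by a mean of 0.05 against WT. The part of the amount of muscle RNA in the difference was not tested. The Myh2 over Myh8 ratio was 0.199 and 0.200 in WT and 0.134 and 0.122 in Wnt1-Ribotag libraries.

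Over the 6 libraries, Myh1, Myh2, Myh4 and Myh3 had patterns close to each other. The Pearson correlation of log2(RPKM + 0.5), a description without a p over 6 libraries in 3 groups, was 0.997 between Myh1 and Myh2, 0.994 between Myh2 and Myh3, 0.991 between Myh1 and Myh4 and 0.989 between Myh2 and Myh4, and Myh1, Myh2 and Myh4 also share sequence. Myh13 had 0.945 to 0.959 with these 3 genes. Myh6 and Myh7 had 0.973, and Myh8 and Myh7 only 0.672. Among 14320 genes, those most like Myh3 were Gm8206 (0.999), Rnf121 (0.996) and Myh2 (0.994), and those most like Myh8 were Pank1 (0.981), Mroh2a (0.980) and Stx11 (0.980). Mamstr, a coactivator of MEF2C in muscle, was most like Myh13 (0.998), before Afap1l1 and Jsrp1. Sugp2 was among the 3 genes most like Myh7 (0.993), with Nrarp and Fam78a, and most like Myh6 (0.979), with Abcc9 and Fzd10. Myh7b was most like Enah (0.986), Anks6 and Hipk3. For Myh1, Myh2 and Myh4 the list was made of other heavy chain genes with Gm8206 for Myh1 and Myh2 and ENSMUSG00000070561 for Myh4.

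The upstream sequence of Myh8 is shown beside those of Myh3, the other main isoform, and Myh1, since these genes of the same cluster differed in level. Each is the 250 bases before the start of the transcript on the plus strand of chromosome 11 (RefSeq, GRCm38.p6), at chr11:67276874-67277123 for Myh8, chr11:67078050-67078299 for Myh3 and chr11:67199852-67200101 for Myh1, and capitals mark the motifs found.
Myh8: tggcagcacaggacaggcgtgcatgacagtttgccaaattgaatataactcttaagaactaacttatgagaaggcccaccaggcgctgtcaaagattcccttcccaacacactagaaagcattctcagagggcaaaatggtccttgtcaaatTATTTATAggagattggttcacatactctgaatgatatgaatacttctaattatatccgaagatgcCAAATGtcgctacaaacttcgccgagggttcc
Myh3: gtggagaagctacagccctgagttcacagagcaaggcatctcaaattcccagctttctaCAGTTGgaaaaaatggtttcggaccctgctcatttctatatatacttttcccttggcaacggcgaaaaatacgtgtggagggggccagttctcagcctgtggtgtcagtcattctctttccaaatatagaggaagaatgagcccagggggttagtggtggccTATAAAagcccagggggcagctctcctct
Myh1: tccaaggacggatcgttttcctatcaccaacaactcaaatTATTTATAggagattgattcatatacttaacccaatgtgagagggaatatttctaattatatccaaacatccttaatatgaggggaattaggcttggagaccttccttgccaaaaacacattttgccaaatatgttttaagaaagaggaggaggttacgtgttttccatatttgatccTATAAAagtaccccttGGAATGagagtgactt
The motifs searched on both strands were the TATA box TATAAA, the E-box CANNTG, which MYOD1 and its relatives can bind, the CATTCC of TEAD proteins and TATTTATA, an A/T-rich run of the kind MEF2 proteins bind, which always contains TATAAA on the other strand. They occur in 12.4%, 66.2%, 12.6% and 1.56% of all 32851 promoter windows of 250 bases. A TATAAA outside TATTTATA was found 29 bases before the start of Myh3 and 32 bases before that of Myh1, and the only one in the window of Myh8 lies within TATTTATA, 98 bases before the start. TATTTATA was also found in Myh1, Myh4 and Myh15, and an E-box in Myh8 32 bases and in Myh3 191 bases before the start. These matches describe the letters only.

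Among the partners of the heavy chains, the light chains gave the only calls. Of 15 light chain and light chain kinase genes tested in mutant vs. WT muscle, 1 rose, beside 0.0498% of all genes tested, and none fell, with a median log2 fold change of 0.18 beside -0.10 over all genes. It was Myl2, the slow and ventricular regulatory light chain, at 6.68 and 4.04 RPKM in WT, 46.7 and 24.5 in mutant and 4.73 and 19.8 in Wnt1-Ribotag libraries (log2 fold change 2.59, SE 0.31, adjusted p = 0.028 from limma in mutant vs. WT). The call ended without a filter on low values (adjusted p = 0.347 from limma), with all 6 libraries in the fit (0.710) and without mutant 1 (0.0618). Both mutant libraries were above both WT libraries, and the Wnt1-Ribotag libraries spread from the WT to the mutant level. Mylpf, the fast regulatory light chain, was the only gene of the list that passed in Wnt1-Ribotag vs. mutant libraries, with a limma adjusted p of 0.0496 and a log2 fold change of -1.46 ± 0.24 (SE), beside 0.175% of all genes called lower, and with 797 and 795 RPKM in Wnt1-Ribotag libraries. That call ended without a filter on low values (adjusted p = 0.382 from limma), with a pseudocount of 1 (0.0545), after scaling by the median of gene ratios (0.0574) and without either mutant library or Wnt1-Ribotag 1 (0.0612 to 0.219). In Wnt1-Ribotag vs. WT libraries 0 of 15 passed, with a median of -0.19, so the light chains did not lie higher there as Myh8 did. Myl1 and Myl6, the alkali light chains with the highest levels, were 460 and 420 RPKM and 601 and 536 RPKM in WT.

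The remaining lists gave no further call in mutant vs. WT muscle. Of the slow fibre genes other than heavy chains, 1 of 9 tested rose, again Myl2, with a median log2 fold change of 0.41, while the slow heavy chains Myh7 and Myh7b were at -0.17 and -0.33. The slow troponin genes Tnni1 and Tnnt1 were 290 and 249.4, and 254 and 233 RPKM in WT, and 430 and 297, and 348 and 282 in mutant libraries. Casq2, which stores calcium in slow and heart muscle, was 71.6 and 68.6 against 146 and 108 RPKM. Of the fast fibre genes, 0 of 11 passed, with a median of 0.73 and 10 of 11 above 0, among them Tnnc2, the fast troponin C gene, at 345 and 268 RPKM in WT and 646 and 560 in mutant libraries. The fast heavy chains Myh2, Myh1 and Myh4 did not show this layout, with log2 fold changes of 0.12, 0.01 and 0.02. Both lists include short transcripts, such as Tnnc2 with 700 and Tnnt1 with 1059 bases, against 6016 to 6340 for the heavy chains. In mutant vs. WT muscle the median of the skeletal muscle fibre markers was 0.88 under 2 kb and 0.18 at 4 kb or longer. The part of transcript length in the contrast was not tested. Of the thick filament partners 0 of 12, of the folding and assembly factors 0 of 10 and of the regulators of isoform genes 0 of 36 passed in each of the 3 comparisons.

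Among the thick filament partners, Mybph, a myosin-binding protein, was highest at 116 and 117 RPKM in WT, 119 and 73.1 in mutant and 101 and 84.0 in Wnt1-Ribotag libraries, ahead of Mybpc1 and Obsl1. Hsp90ab1, a chaperone, led the folding factors with 870 and 773 RPKM in WT, followed by Hsp90aa1 and Klhl41. The regulators were led by Myog, which drives muscle differentiation, with 266 and 212 RPKM in WT, 313 and 232 in mutant and 160 and 172 in Wnt1-Ribotag libraries, followed by Tead2 and Nfix. Nfix, a factor of the fetal muscle program, was 52.2 and 47.7 RPKM in WT, 49.4 and 32.7 in mutant and 205 and 57.6 in Wnt1-Ribotag libraries, far apart in the last group. The nonmuscle heavy chains Myh10 and Myh9 and the smooth muscle heavy chain Myh11, which serve other cells, gave 0 calls among 3 tested in each comparison. Myh10 was 53.1 and 62.4 RPKM in WT, 47.1 and 42.6 in mutant and 69.4 and 107 in Wnt1-Ribotag libraries.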

How the data were processed

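RNA-Seq of mouse diaphragm muscle at E14.75 was analysed in 6 libraries, 2 per group, grouped by the labels. The authors deposited RPKM per Ensembl gene, with a mark for genes at the floor, made from oligo-dT selected RNA. The submitters' processing notes name STAR and mm9, and the program behind the RPKM is not given in the sources used here. Of 23076 entries, 3 hold no value. Of the identifiers, 21583 matched GENCODE M21 on GRCm38, from which symbols, positions and coding sequences came, and 1490 did not. No positions of mm9 were used. Depth came from the floors of microRNA genes. Since no counts were used, no counting error is given.

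RPKM were compared as log2(RPKM + 0.5) with limma 3.58.1 (lmFit, eBayes with a trend) in R 4.3.3, leaving out genes whose mean RPKM in the 4 libraries compared was under 0.5, with Benjamini-Hochberg adjustment over all genes tested and a threshold of 0.05. Sums and shares were compared by two-sided exact permutation tests. The procedure was tested on simulated data. The members and lists were chosen with earlier results of these data known. Genes named are all members, the 3 genes of a list with the highest mean RPKM and every called gene, and the 3 genes most correlated with a member. Other genes of the lists were named after their values were seen. Coding words of 36, 50 and 100 bases were compared, the first and last of them chosen after seeing the data. Promoters and microRNAs came from RefSeq. The scripts ran under Python 3.11.15 with scipy 1.17.1, pandas 2.3.3, numpy 2.4.6 and, for plots, matplotlib 3.10.9.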

Additional observations from a re-analysis of the deposited data

How the results depend on the processing

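With 2 libraries per group and mutant libraries that lay on either side of WT, the data could not fix the direction of any heavy chain in mutant vs. WT muscle. With pseudocounts of 0.1 and 1, other filters, scaling by the median of gene ratios and all 6 libraries in the fit, and with the replicate block in Wnt1-Ribotag vs. mutant libraries, 0 of the heavy chain fold changes changed direction, out of 54 in mutant vs. WT, 54 in Wnt1-Ribotag vs. WT and 63 in Wnt1-Ribotag vs. mutant libraries. The lowest adjusted p from limma over all alternatives was 0.0653, 0.00193 and 0.0370 in the same order.

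Genes past the threshold in mutant vs. WT numbered 24, and 0 without a filter, 42 after scaling, 0 with all 6 libraries and 10 to 106 with a library left out. In Wnt1-Ribotag vs. WT the numbers were 1, then 0, 2, 138 and 26 to 5965, and in Wnt1-Ribotag vs. mutant 171, then 112 without a filter, 692 with all 6 libraries and 112 to 3672 with a library left out. The Wnt1-Ribotag and mutant libraries share the replicate numbers 1 and 2, which the labels do not tie to a shared litter, and the deviations of libraries with the same number had a correlation of 0.168 over 14325 genes. With the replicate number as a block 842 genes passed, among them Myh8 (1.07, adjusted p = 0.0370 from limma). The other 8 heavy chains did not pass under the block.

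With each library left out in turn, the log2 fold change in mutant vs. WT ran from -0.35 to 0.56 for Myh3, -0.47 to 1.03 for Myh8, -0.86 to 0.53 for Myh7, -0.73 to 0.08 for Myh7b, -0.66 to 0.30 for Myh6, -0.60 to 0.84 for Myh2, -0.60 to 0.62 for Myh1, -0.72 to 0.75 for Myh4 and -0.34 to 0.69 for Myh13. The lower end came without mutant 1 and the upper end without mutant 2 for all 9, and without WT 6 the values of Myh1 and Myh4 also turned, to -0.04 and -0.10. In Wnt1-Ribotag vs. WT it ran from -0.32 to 0.45 for Myh7, -0.15 to 0.46 for Myh7b and -0.19 to 0.47 for Myh6, with the lower end without Wnt1-Ribotag 1, and was -0.04 for Myh7 without WT 6 and -0.02 for Myh7b without WT 5. In Wnt1-Ribotag vs. mutant it ran from -0.05 to 0.86 for Myh3, -0.46 to 0.93 for Myh7, -0.16 to 0.80 for Myh6, -0.13 to 1.30 for Myh2, -0.07 to 1.15 for Myh1, -0.22 to 1.25 for Myh4, 0.32 to 1.83 for Myh8, 0.01 to 1.05 for Myh13 and 0.08 to 0.89 for Myh7b, with the lower end without mutant 2, and was -0.15 for Myh7 and -0.01 for Myh6 without Wnt1-Ribotag 1. The log2 ratio of the summed RPKM in mutant vs. WT ran from -0.474 to 0.68. In percentage points, the difference in mutant vs. WT ran from -4.08 to 4.33 for the Myh3 share (-0.316 without WT 6), -0.084 to 5.78 for the Myh8 share and -1.21 to 0.665 for the adult fast and extraocular share, which ran from -1.36 to 0.515 in Wnt1-Ribotag vs. mutant libraries. The cause was not tested.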
